A study of Mus musculus with 7 samples.

Results

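The genes described here build or take up the lipids of a cell: enzymes that make, desaturate, elongate and activate fatty acids, proteins that import and bind them, enzymes that join them into triglyceride, proteins of the lipid droplet, enzymes of sterol synthesis, and regulators of these routes. They were chosen as a list of 45 gene names by role, with earlier results of these data known. Counts of these genes beside the share of all genes are therefore descriptions. A gene was measured where the array had a probe set annotated to that gene alone. That held for 41 of the 45, among 17096 genes measured in all. Scd2, Acsl1, Agpat2 and Srebf1 were not analysed here. Of several probe sets for a gene, the brightest by its mean across the 7 arrays was used.

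Gene expression was measured on 7 Affymetrix arrays of sorted mouse mammary cells. The adult luminal cells (2 arrays) came from K8CREERT2/RosaYFP mice and the adult basal cells (2 arrays) from K5CREERT2/RosaYFP mice, both taken as YFP+ cells 8 weeks after tamoxifen. In these mice a tamoxifen-activated Cre recombinase, driven by the keratin 8 or the keratin 5 promoter, switches on YFP, so the samples hold cells that were labelled through that promoter and their descendants. The embryonic cells (3 arrays) were CD49fHi Lgr5Hi cells of Lgr5-IRES-GFP female embryos at embryonic day 14, sorted as 2000, 2000 and 813 cells, each array from the pooled females of a litter. The age and sex of the adult mice are not given in the labels, and whether the 2 adult arrays of a group come from different mice is not given either. The p-values therefore reflect the spread among arrays, which may be technical.

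A cell makes fatty acids from citrate: ATP citrate lyase releases acetyl-CoA, acetyl-CoA carboxylase turns it into malonyl-CoA, and fatty acid synthase builds a saturated chain that desaturases and elongases then modify. Sterols also start from acetyl-CoA, through mevalonate, squalene and lanosterol, and the SREBP transcription factors, held back by the INSIG proteins when sterols are plentiful, drive genes of both routes. In the mammary gland the luminal layer holds the cells that can secrete milk fat, and the basal layer holds the contractile cells that press it out.

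Values are log2 of the deposited intensity, with a median over probe sets of 5.05 to 5.08 on each array. The background was set at 5.75 (53.8 in intensity units), which 95% of 153 probe sets for organ-specific genes foreign to the mammary gland did not exceed, and 8164 to 8498 genes lay above it on each array. A gene is called changed where limma gave an adjusted p under 0.05 together with a 2-fold or larger difference. The cell labels held on their markers: 9 of 11 basal marker genes were higher in basal cells and 8 of 12 luminal marker genes higher in luminal cells. Of markers of other cells, 5 of 15 fibroblast genes were higher in basal cells, and 0 of 13 endothelial, 0 of 14 leukocyte and 0 of 10 adipocyte genes changed. In sorted bulk samples, fewer cells of a type and less RNA per cell cannot be told apart.

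Of the 41 lipid genes, 4 changed between adult luminal and adult basal cells. The elongase gene Elovl7, the phosphatidate phosphatase gene Lpin2 and the sterol reductase gene Dhcr7 were higher in luminal cells, by 2.12-fold to 2.99-fold, and the kinase gene Pdk4 was higher in basal cells, by at least 2.32-fold. Over all genes, 939 changed (5.49%), with 490 higher in luminal cells (2.87%) and 449 higher in basal cells (2.63%). At the 5.49% share about 2 of 41 would have been called, against the 4 found. That share covers all 17096 genes, of which 8128 had both group means below background, against 6 of the 41. The share among genes above background is not given here, so the 4 found are not read as an excess. Quantile normalization turned the balance over all genes, to 362 higher in luminal and 515 higher in basal cells. The lipid genes divided evenly, with 21 differences above 0 (53.9% of all genes) and 20 below. Their median luminal minus basal difference was 0.00 against 0.02 for all genes, and on the arrays 26 of 41 did not overlap between the groups (59.2% of all genes), with luminal higher in 15 (33.9%) and basal higher in 11 (25.3%). With no fold minimum 6 passed the adjusted p (13% of all genes), and 7 differed by 2-fold or more whatever their p (7.42%).

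**Figure D1:**
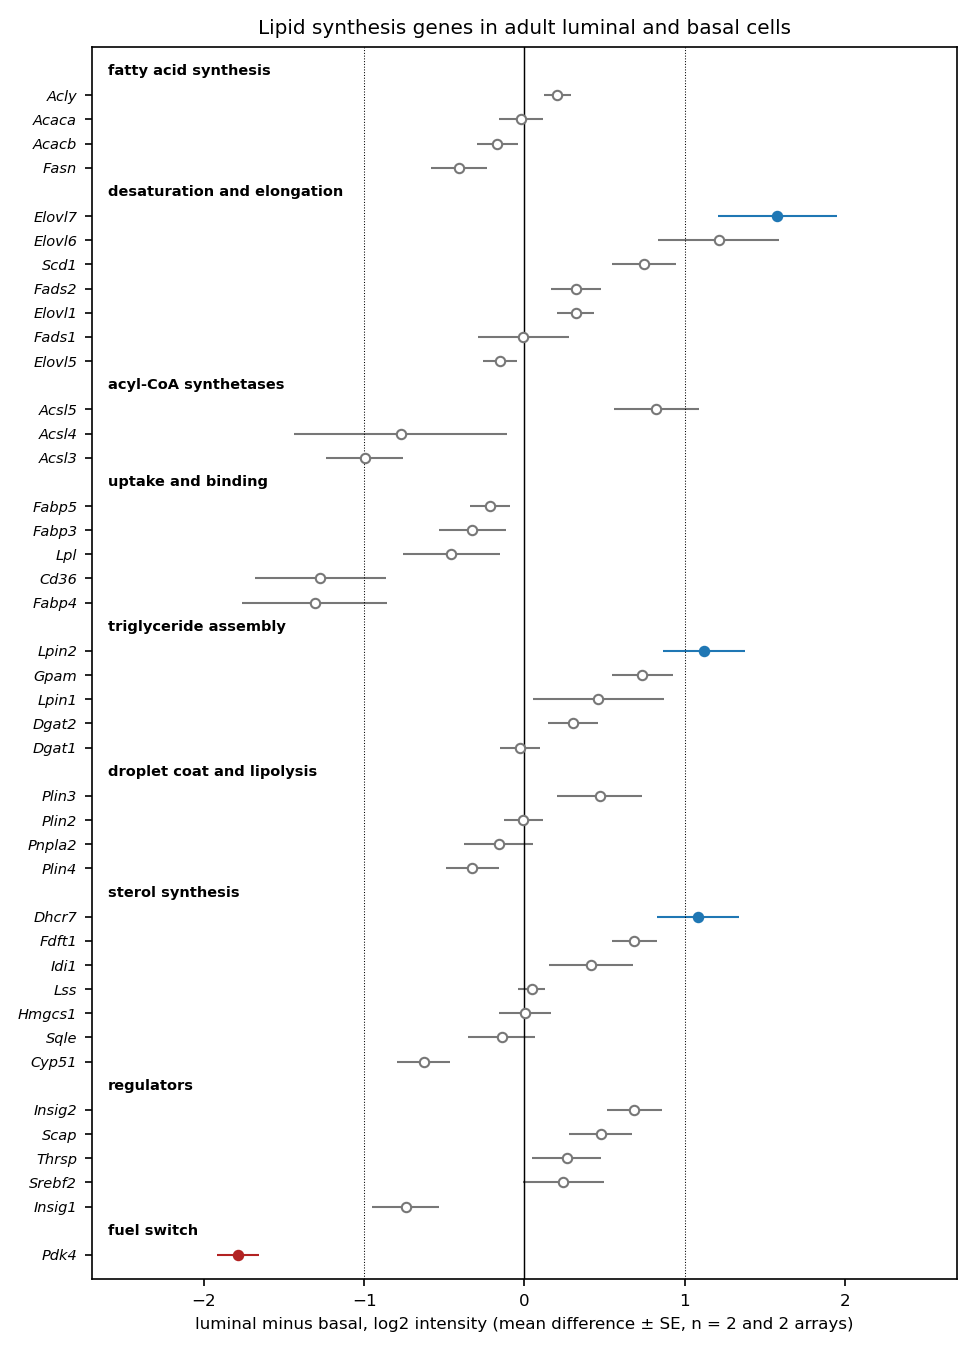
Luminal minus basal difference in log2 intensity (horizontal axis) for each of the 41 lipid genes, grouped by role; points are mean differences over 2 and 2 arrays, lines are the limma SE, and dotted lines mark 2-fold. Filled blue points (Elovl7, Lpin2, Dhcr7) changed with luminal higher, the filled red point (Pdk4, -1.79) changed with basal higher, and open grey points did not pass.

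For 21 of the 41 genes the 95% interval of the difference, taken gene by gene with no adjustment, lay within 2-fold either way. Among them were the central enzymes of fatty acid synthesis. Acly, which encodes ATP citrate lyase, read 9.69 and 9.78 on the luminal arrays and 9.52 and 9.54 on the basal arrays, a difference of 0.20 ± 0.08 (SE), with an interval of 0.00 to 0.41. Acaca, the acetyl-CoA carboxylase of the cytosol, read 8.59 and 8.72 against 8.58 and 8.77, a difference of -0.02 ± 0.14 with an interval of -0.36 to 0.32. The luminal arrays of Acly lay above both basal arrays by less than the 2-fold minimum, and those of Acaca overlapped with the basal ones. The dimmer probe set of each gene had a larger difference, 0.55 for Acly and -0.32 for Acaca. Fasn, fatty acid synthase, read 8.21 and 8.31 in luminal and 8.93 and 8.41 in basal cells, a difference of -0.41 ± 0.17 (SE, adjusted p = 0.169). Both basal arrays of Fasn lay above both luminal arrays, but the basal pair was itself 0.53 apart. Acacb, the carboxylase of the mitochondrial surface, stayed below background in both groups. None of the 4 synthesis genes changed by limma, and their median difference was -0.09.

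The promoters of the genes that changed are printed here, with those of a related elongase and of another sterol enzyme that did not pass, so that what their upstream sequences share can be seen beside their values. Each is the 250 bases before a RefSeq gene start on GRCm38.p6, read 5′ to 3′ along the gene, and for a gene with several starts the window with the most motif matches is shown. Both strands were searched for the sterol regulatory element TCACNCCAC, the E-box CACGTG, the CCAAT box (the letters CCAAT, or ATTGG on the other strand) and the forkhead motif GTAAACA. Capitals mark the matches, and no match overlapped another. The Cyp51 promoter was chosen after its values were seen.
Elovl7 (chr13:108214154-108214403, plus strand): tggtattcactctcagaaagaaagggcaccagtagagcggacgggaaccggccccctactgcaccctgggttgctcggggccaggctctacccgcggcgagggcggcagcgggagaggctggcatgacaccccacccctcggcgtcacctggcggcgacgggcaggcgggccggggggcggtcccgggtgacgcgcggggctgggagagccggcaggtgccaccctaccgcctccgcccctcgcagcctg
Elovl6 (chr3:129532136-129532385, plus strand): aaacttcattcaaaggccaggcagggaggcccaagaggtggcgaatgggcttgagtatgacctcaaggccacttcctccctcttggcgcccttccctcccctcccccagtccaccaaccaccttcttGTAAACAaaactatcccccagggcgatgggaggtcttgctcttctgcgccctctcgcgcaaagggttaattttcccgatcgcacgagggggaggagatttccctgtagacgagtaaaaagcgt
Lpin2 (chr17:71204404-71204653, plus strand): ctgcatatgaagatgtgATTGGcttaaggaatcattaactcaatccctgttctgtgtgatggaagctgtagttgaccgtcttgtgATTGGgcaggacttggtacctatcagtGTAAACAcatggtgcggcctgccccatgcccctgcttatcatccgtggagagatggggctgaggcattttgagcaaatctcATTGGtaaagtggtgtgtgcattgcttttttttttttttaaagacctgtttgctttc
Dhcr7 (chr7:143829964-143830213, plus strand): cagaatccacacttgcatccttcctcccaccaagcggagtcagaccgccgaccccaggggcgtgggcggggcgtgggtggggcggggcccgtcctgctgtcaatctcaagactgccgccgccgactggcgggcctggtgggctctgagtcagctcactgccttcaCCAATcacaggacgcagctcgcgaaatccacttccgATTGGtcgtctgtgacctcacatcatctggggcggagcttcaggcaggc
Cyp51 (chr5:4104698-4104947, minus strand): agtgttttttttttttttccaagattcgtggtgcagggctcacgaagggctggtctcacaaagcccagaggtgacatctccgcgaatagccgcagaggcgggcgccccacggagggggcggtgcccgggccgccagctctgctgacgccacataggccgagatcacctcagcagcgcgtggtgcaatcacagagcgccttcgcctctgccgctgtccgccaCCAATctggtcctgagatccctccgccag
Pdk4 (chr6:5496279-5496528, minus strand): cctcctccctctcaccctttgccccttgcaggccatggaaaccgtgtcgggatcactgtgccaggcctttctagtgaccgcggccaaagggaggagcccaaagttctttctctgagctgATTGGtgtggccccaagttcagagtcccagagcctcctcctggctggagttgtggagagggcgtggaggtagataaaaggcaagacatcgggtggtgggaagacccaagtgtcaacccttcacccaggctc

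Of the 41 measured lipid genes, 32 had a promoter in the RefSeq table. A CCAAT box was found in 22 of the 32 (68.8%), against 37.5% of 27025 genes. Those are all genes of that table, whether or not they were measured or expressed here. A gene counted where any of its starts had a match, and the number of starts was not matched. In these windows Dhcr7 held it 85 and 49 bases before the start, Cyp51 at 29, Pdk4 at 131 and Lpin2 at 233, 165 and 57. The E-box was found in 5 of the 32 (15.6%), against 6.86% of all genes: Elovl5, Lpin2, Dhcr7, Scap and Insig1. Lpin2 and Dhcr7 held it before another start than the one printed, at 9 and 164 bases. The forkhead motif was found in 2 of the 32, Elovl6 and Lpin2, against 3.54%. The exact letters of the sterol regulatory element occurred in 1 of the 32, Hmgcs1, against 1.22% of all genes. Genes on both sides of the comparison held the CCAAT box: Dhcr7, higher in luminal cells, and Pdk4, higher in basal cells. The Elovl7 window held none of the 4 motifs. A match is a description of letters and not evidence of binding.

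Among genes that reshape fatty acids, Elovl7, an elongase of long chains, changed. It read 8.07 and 7.79 on the luminal arrays, 6.07 and 6.63 on the basal arrays, and 6.25, 7.22 and 6.26 on the embryonic arrays. Both luminal arrays lay above both basal arrays. The luminal minus basal difference was 1.58 ± 0.37 (SE, adjusted p = 0.0432), which is 2.99-fold, and all 5 Elovl7 probe sets read higher in the luminal mean, by 0.35 to 1.58. Elovl6, the elongase that extends palmitate, read 7.67 and 7.70 in luminal and 5.99 and 6.95 in basal cells. The luminal arrays of Elovl6 were nearly equal and above both basal arrays, which were 0.96 apart, and its difference of 1.21 ± 0.38 did not pass (adjusted p = 0.0858). With the 4 adult arrays alone Elovl6 was called by a narrow margin (limma adjusted p = 0.0489). Its 3 probe sets, from the brightest to the dimmest, gave differences of 1.21, 0.62 and 0.22. Scd1, the desaturase that makes oleate, read 8.20 and 8.40 against 7.27 and 7.83, a difference of 0.75 ± 0.20 (adjusted p = 0.0579, and 0.0653 with the 4 adult arrays alone). The luminal arrays of Scd1 did not overlap with the basal ones either.

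The other desaturases and elongases differed less. Fads1 and Fads2, the desaturases of polyunsaturated fatty acids, had differences of -0.01 and 0.32, and the basal arrays of Fads1, at 7.71 and 8.54, lay on both sides of the luminal ones. Elovl1, which elongates saturated very long chains, had a difference of 0.32, and Elovl5, which elongates polyunsaturated chains, one of -0.15. Of the 7 genes of this group, 1 changed and 5 had differences above 0, with a median of 0.32. The second basal array read above the first for all 7, by a median of 0.56, a spread that enters every difference of the group. Over all genes it read above the first for 55.2%.

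The acyl-CoA synthetases, which activate a fatty acid before it is used, gave differences on both sides of 0, and none of the 3 was called changed. Acsl3, a synthetase of the endoplasmic reticulum and lipid droplet, read 6.78 and 6.77 on the luminal arrays and 7.59 and 7.96 on the basal arrays. Its luminal minus basal difference of -0.997 ± 0.24 (SE, adjusted p = 0.0453), 1.996-fold, lay just under the 2-fold minimum, so it passed the test but was not called changed. All 3 Acsl3 probe sets had luminal minus basal differences below 0, from -1.21 to -0.81. Acsl5, a synthetase of mitochondria and endoplasmic reticulum, read 9.09 and 9.004 against 8.28 and 8.17, a difference of 0.82 ± 0.27 (adjusted p = 0.0914). With the 4 adult arrays alone Acsl5 had a limma adjusted p of 0.0127, at a difference under the 2-fold minimum. Acsl4, which prefers arachidonate, read 6.46 and 6.13 against 7.32 and 6.81, a difference of -0.77 ± 0.67 (adjusted p = 0.485). The groups did not overlap in any of the 3, as in 59.2% of all genes. The large SE of Acsl4 came with embryonic arrays of 5.35, 5.30 and 7.28, whose spread the test pools with that of the adult arrays; with the 4 adult arrays alone the SE was 0.22 and the adjusted p 0.0638.

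**Figure D2:**
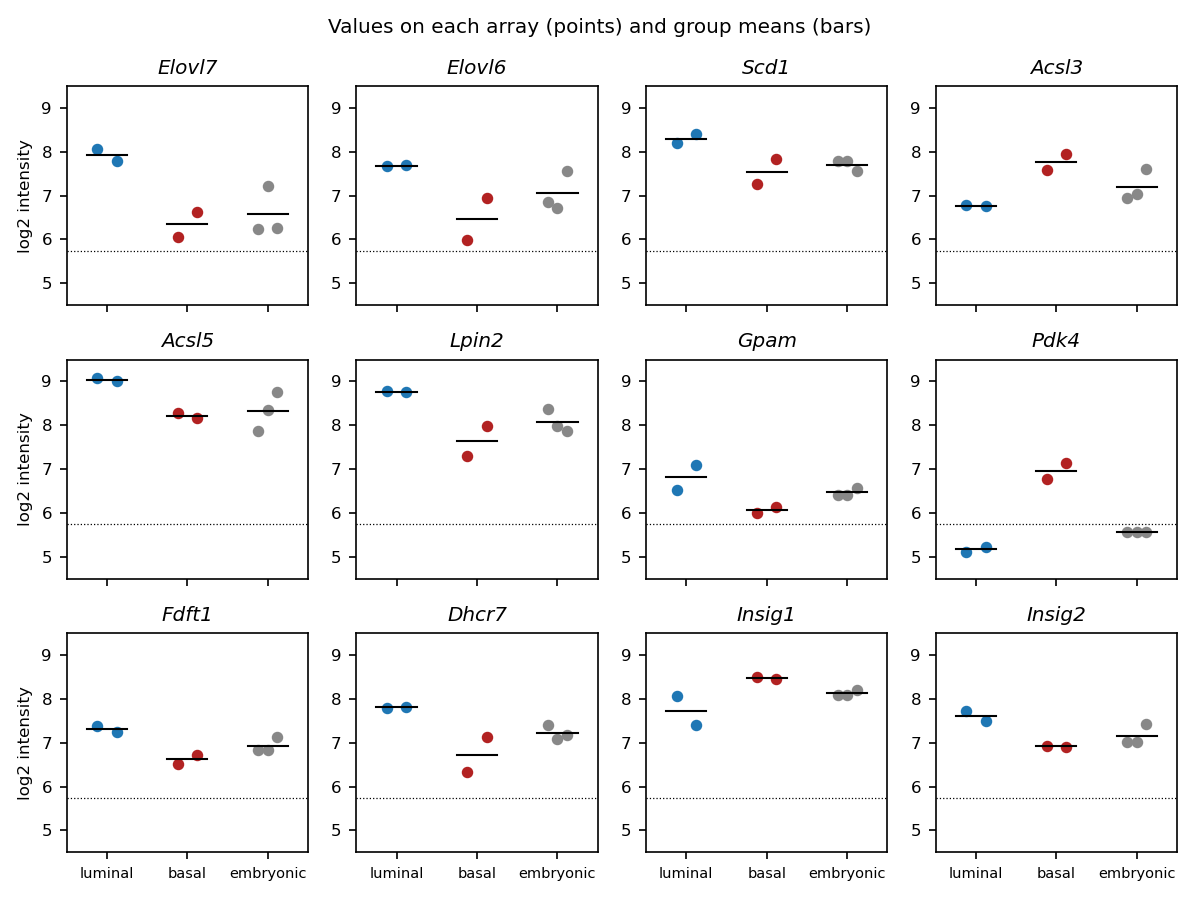
Log2 intensity (vertical axis) of 12 lipid genes on each array: 2 luminal (blue), 2 basal (red) and 3 embryonic (grey), with bars at group means and a dotted line at the background of 5.75. For Elovl7, Lpin2, Dhcr7, Elovl6, Scd1 and Acsl5 both luminal points lie above both basal points; for Pdk4 and Acsl3 the order is the other way, and the 3 embryonic points of Pdk4 coincide.

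The uptake and binding genes gave 5 differences of 5 below 0 (7874 of all 17096 genes), with a median of -0.46, and none changed by limma. Fabp4, a fatty acid binding protein of adipocytes and capillary endothelium, read 6.02 and 7.44 on the luminal arrays and 7.79 and 8.30 on the basal arrays, a difference of -1.31 ± 0.45 (SE, adjusted p = 0.106). Cd36, a fatty acid translocase, read 4.16 and 4.94 against 5.37 and 6.27, a difference of -1.27 ± 0.41 (adjusted p = 0.0900). Both genes had basal arrays above both luminal arrays, but the luminal replicates of Fabp4 were 1.42 apart, more than the difference between groups, and Cd36 was above background on 1 array alone, the second basal one. Lpl, the lipase that frees fatty acids from circulating lipoproteins, read 5.40 and 6.08 against 5.92 and 6.47, and the groups overlapped. Fabp3 and Fabp5, the binding proteins of heart and of skin, had differences of -0.32 and -0.21, and the groups overlapped for Fabp3.

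Markers of endothelial cells, fibroblasts and leukocytes varied over the adult arrays along with these genes. All 13 endothelial markers read lower in the luminal mean, with a median of -1.27, and their summed intensity was 549 and 914 on the luminal arrays and 1332 and 2138 on the basal arrays. The second luminal array read above the first for 13 of 13, as it did for all 5 uptake and binding genes. Over all 17096 genes it did so for 8095. Fibroblast markers, with a median of -1.08, had sums of 3564 and 5791 in luminal and 9668 and 11849 in basal cells. Leukocyte markers, with a median of -0.18, had sums of 736 and 861 in luminal and 885 and 1055 in basal cells, and 12 of 14 read higher on the second luminal array than on the first. Adipocyte markers were near background on every array, with 2 to 4 of 10 above it, the defining marker Adipoq below it, and sums of 369 to 383 in luminal and 374 to 440 in basal cells. The part of endothelial, fibroblast or leukocyte RNA in the values of Cd36, Fabp4 and Lpl was not tested.

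**Figure D3:**
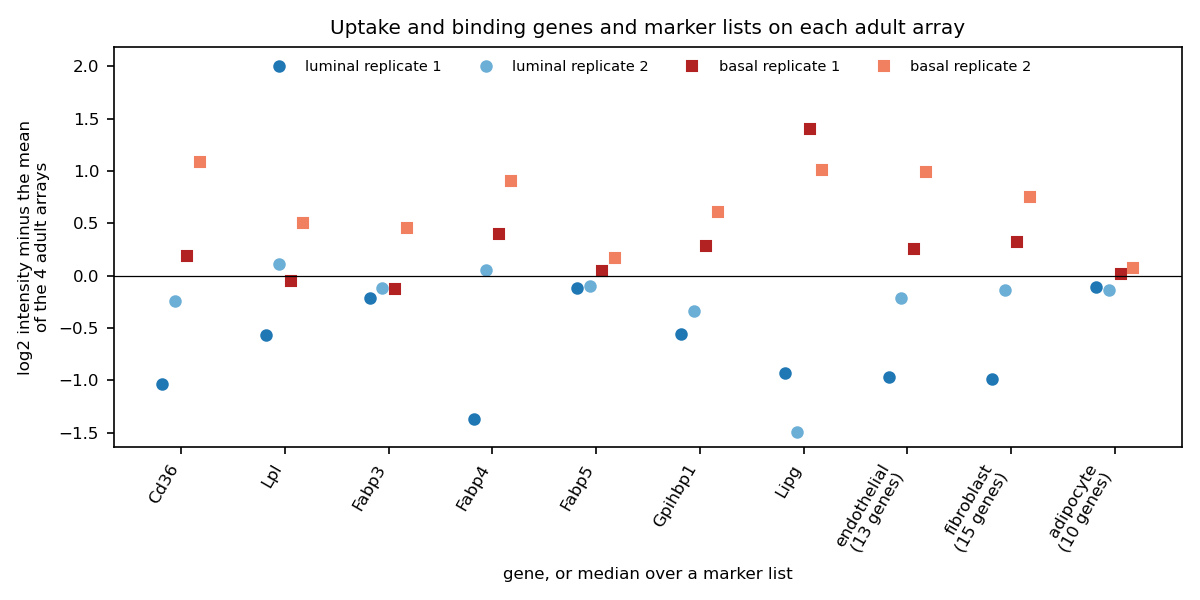
Log2 intensity on each adult array minus the mean of the 4 adult arrays (vertical axis), for the 5 uptake and binding genes, for Gpihbp1 and Lipg, and as the median over 13 endothelial, 15 fibroblast and 10 adipocyte markers; circles are luminal and squares basal arrays. The endothelial median runs from -0.97 (luminal 1) over -0.21 and 0.26 to 0.99 (basal 2), Cd36 and Fabp4 run in the same order, and the adipocyte median stays between -0.13 and 0.08.

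In triglyceride assembly, Lpin2 changed. It encodes a lipin, the phosphatase that turns phosphatidate into diacylglycerol. It read 8.79 and 8.75 on the luminal arrays, 7.30 and 7.99 on the basal arrays, and 8.36, 7.99 and 7.87 on the embryonic arrays. The luminal arrays differed by 0.04 and lay above both basal arrays. The difference was 1.12 ± 0.25 (SE, adjusted p = 0.0399), which is 2.18-fold, and its 3 probe sets gave differences of 1.12 to 1.57. The related lipin gene Lpin1 had a difference of 0.46 with basal arrays at 5.84 and 6.73, and its groups overlapped on the arrays by a narrow margin.

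Gpam, the mitochondrial acyltransferase of the first step, read 6.53 and 7.11 in luminal and 6.01 and 6.15 in basal cells, a difference of 0.74 ± 0.19 (adjusted p = 0.0538). Dgat1 and Dgat2, which add the last fatty acid, had differences of -0.03 and 0.30. Of the 5 assembly genes, 1 changed and 4 differences lay above 0. The droplet genes differed less: Plin2, the coat protein of milk fat droplets, read 9.07 and 9.25 against 9.06 and 9.27, a difference of -0.01 with a 95% interval of -0.30 to 0.29. Plin3, a coat protein of small droplets, had a difference of 0.47 (adjusted p = 0.287), and Plin4 and the lipase gene Pnpla2 were below background in both groups. None of the 4 droplet genes changed by limma.

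In sterol synthesis, Dhcr7 changed. It encodes the reductase that finishes cholesterol from 7-dehydrocholesterol. It read 7.80 and 7.82 on the luminal arrays, 6.33 and 7.13 on the basal arrays, and 7.42, 7.08 and 7.17 on the embryonic arrays. The luminal arrays were nearly equal and above both basal arrays, which were 0.80 apart. The difference was 1.08 ± 0.26 (SE, adjusted p = 0.0444), which is 2.12-fold, from a single probe set. Fdft1, squalene synthase, read 7.38 and 7.24 against 6.52 and 6.72, a difference of 0.69 ± 0.14 that passed the test (adjusted p = 0.0322) but not the 2-fold minimum. Cyp51, the lanosterol demethylase, ran the other way at 8.48 and 8.02 against 8.92 and 8.84, a difference of -0.63 ± 0.17 (adjusted p = 0.0579). Both basal arrays of Cyp51 lay above both luminal arrays.

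None of the remaining sterol enzymes of the list passed. Idi1, the isomerase of isopentenyl diphosphate, read 6.84 and 6.07 against 6.20 and 5.87, and Sqle, squalene epoxidase, 7.43 and 6.82 against 7.34 and 7.20. In both the luminal replicates were further apart than the group means. Hmgcs1 and Lss were below background in both groups. Of the 7 sterol genes of the list, 1 changed, with a median difference of 0.05.

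The 9 other measured enzymes of the route, from a wider list of lipid genes, gave 3 genes higher in luminal cells and none higher in basal cells. Fdps, farnesyl diphosphate synthase, read 7.62 and 7.34 against 6.13 and 6.34, a difference of 1.24 ± 0.25 (SE, adjusted p = 0.0301). Ebp, the sterol isomerase, had a difference of 1.16 ± 0.25 (adjusted p = 0.0366), and Nsdhl, a dehydrogenase of the demethylation complex, one of 1.06 ± 0.22 (adjusted p = 0.0322). Mvk and Mvd, enzymes of the mevalonate steps, did not pass, with differences of 0.13 and 0.78. All 9 differences were above 0, with a median of 0.78. Over the 16 measured enzymes of the whole route, 4 changed, all higher in luminal cells (2.87% of all genes), 14 differences lay above 0 (53.9% of all genes), and the median was 0.43 (0.02 for all genes). The 2 below 0 were Cyp51 and Sqle. The 14 above 0 include 3 genes with both group means below background, Hmgcs1, Lss and Msmo1.

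The luminal arrays differed between themselves over this route. The second luminal array read below the first for 14 of the 16 enzymes, by a median of -0.19, where 52.6% of all genes read lower. Dhcr7 and Hmgcs1 were the exceptions. The 14 include Lss (-0.003) and Msmo1 (-0.098), which were below background. Of the 16 measured enzymes, 13 had a promoter in the RefSeq table, and all 13 held a CCAAT box in the 250 bases before a start. The share was 37.5% over all 27025 genes of that table, measured here or not. Those 13 include Cyp51, so genes with a CCAAT box stood on both sides of 0.

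**Figure D4:**
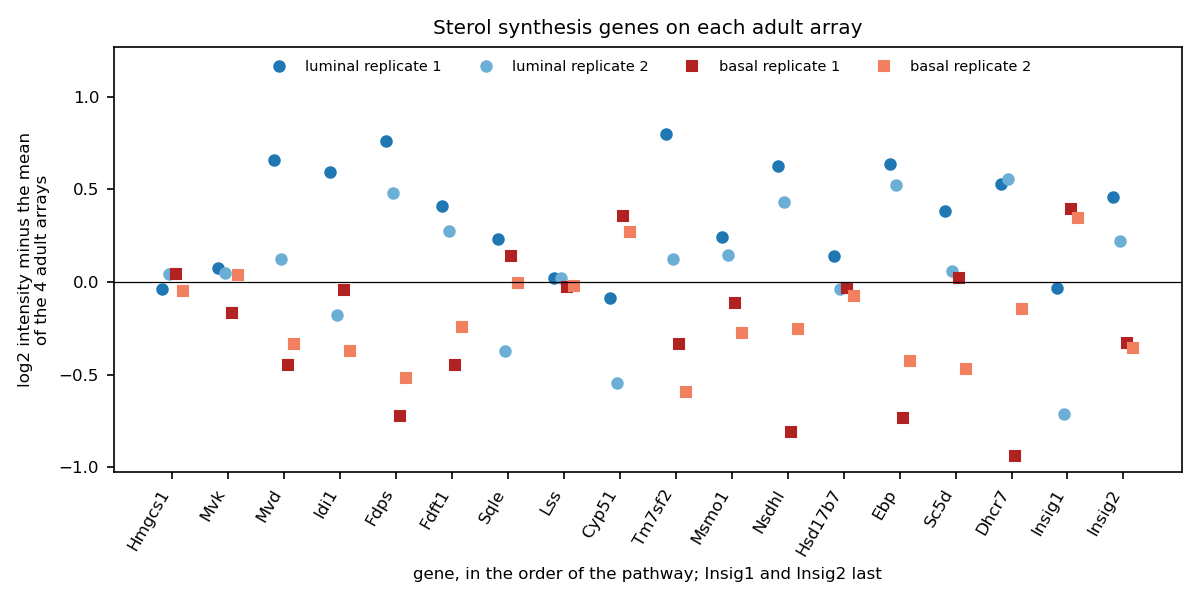
Log2 intensity on each adult array minus the mean of the 4 adult arrays (vertical axis) for 16 sterol synthesis enzymes in the order of the route and for Insig1 and Insig2; circles are luminal and squares basal arrays. Fdps, Nsdhl, Ebp and Dhcr7 have both luminal arrays above both basal arrays, Cyp51 and Insig1 have both basal arrays above both luminal arrays, and the second luminal array lies below the first for 14 of the 16 enzymes.

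None of the 5 measured regulators changed by limma. Insig1 and Insig2 encode related proteins that hold the SREBP precursor in the endoplasmic reticulum, and their values ran in opposite directions. Insig1 read 8.07 and 7.40 on the luminal arrays and 8.50 and 8.45 on the basal arrays, a difference of -0.74 ± 0.21 (SE, adjusted p = 0.0672). Insig2 read 7.72 and 7.49 against 6.93 and 6.91, a difference of 0.68 ± 0.17 (adjusted p = 0.0503). The groups did not overlap for either gene, and whether the Insig1 and Insig2 differences differ from each other was not tested. Without the first luminal array, Insig1 passed, at -1.08 (adjusted p = 0.0483). Scap, which escorts SREBP to its activation, had a difference of 0.48 (adjusted p = 0.157), and Srebf2, the SREBP of sterol genes, one of 0.24 (adjusted p = 0.571). Thrsp, a lipogenic nuclear protein, was below background in both group means.

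Pdk4 gave the largest difference of the 41 genes as measured, though with luminal arrays under background. It encodes a kinase that shuts pyruvate dehydrogenase and so spares glucose when fatty acids are burned. It read 5.12 and 5.23 on the luminal arrays and 6.78 and 7.14 on the basal arrays. The basal arrays were far above the luminal ones, which lay under the background of 5.75. The difference was -1.79 ± 0.13 (SE, adjusted p = 0.00473), which is 3.45-fold as measured. Since neither luminal array was above background, the basal mean of 6.96 over the background gives at least 2.32-fold. The 3 embryonic values of Pdk4 were identical at 5.57, which lowers the pooled spread; with the 4 adult arrays alone the SE was 0.16 and the adjusted p 0.00407.

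Pdk4 was called in 18 of 19 alternative settings, Lpin2 in 14, Elovl7 in 11 and Dhcr7 in 10, and no setting turned the sign of any of the 4. The settings with a 1.5-fold or no fold minimum reused the main fit and could not end a call. Another variance prior, the 4 adult arrays alone and leaving out an embryonic array kept the differences, so no sign could turn there. With array weights Pdk4 alone was called, and quantile normalization ended the calls of Elovl7 and Dhcr7. Leaving out an array often lowered the count of 4. It was 2 without embryonic replicate 1 and 2 without embryonic replicate 2. Leaving out basal replicate 1 or luminal replicate 2 kept Pdk4 alone, a count of 1. The fit without luminal replicate 1 also gave 1, which was Insig1, and Pdk4 had an adjusted p of 0.0506 there. The count over all genes fell as well, from 939 to 60, 148, 180 and 377 without luminal 1, luminal 2, basal 1 and basal 2.

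The wider list held 79 measured genes of lipid metabolism that are not among the 41, also chosen with earlier results of these data known. Both group means were below background for 21 of the 79, against 8128 of all 17096 genes. At the share of all genes that changed (5.49%), about 4 of 79 would have been called. Of the 79, 8 changed, 4 in each direction. This count was 5 without embryonic replicate 1 and 0 without luminal replicate 1, and it was 3 when luminal replicate 2, basal replicate 1 or basal replicate 2 was dropped. Of 13 genes of fatty acid supply and synthesis, 1 changed: Elovl4, an elongase of very long chains, read 4.99 and 4.92 on the luminal arrays and 7.58 and 8.05 on the basal arrays. The difference was -2.86 ± 0.36 (SE, adjusted p = 0.0120), 7.26-fold as measured and at least 4.19-fold over the background, since neither luminal array was above it. Elovl7 and Elovl4, both elongases, thus changed in opposite directions. The citrate carrier gene Slc25a1 and the acetyl-CoA synthetase gene Acss2 did not pass, with differences of 0.44 and 0.33.

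Of 11 other uptake and binding genes, 1 changed: Lipg, endothelial lipase, read 6.41 and 5.84 against 8.73 and 8.34, a difference of -2.42 ± 0.58 (adjusted p = 0.0452). Both basal arrays of Lipg lay well above both luminal arrays, and the order within each pair was not that of the endothelial markers. The part of endothelial RNA in the Lipg values was not tested. Gpihbp1, which anchors lipoprotein lipase on capillaries and was chosen after its values were seen, had a difference of -0.89 (adjusted p = 0.0177) with both group means below background. The fatty acid transporter genes Slc27a1 and Slc27a2 did not pass, at 0.31 and -0.07. None of 21 other triglyceride, droplet and milk fat globule genes changed by limma, though 2 had an adjusted p under 0.05; the acyltransferase genes Agpat1 and Agpat3 had differences of 0.58 and 0.69.

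The embryonic columns do not enter the luminal minus basal differences, but their spread enters the SE and the p-values. With the 4 adult arrays alone 5 lipid genes changed, Elovl6 besides the 4 of the main fit. Over all probe sets, the embryonic mean minus the adult mean had an SD of 0.09, against 0.49 for luminal minus basal. Accordingly 36 of the 41 lipid genes had an embryonic mean between the luminal and basal means, as did 89.3% of all genes. At least 2 embryonic arrays held the identical value for 15 of the 41 genes and for 44.2% of all genes. Levels of lipid genes in embryonic against adult cells therefore carry a limit: on most probe sets the table puts the embryonic arrays close to the average of the adult ones.

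Within that limit, 1 of the 41 genes changed between embryonic and basal cells, where 12 genes changed in all (0.0702%). That was Pdk4, with an embryonic minus basal difference of -1.39 ± 0.12 (SE, adjusted p = 0.0414) and 3 tied embryonic values. The count was 0 without embryonic 1, embryonic 2 or any of the 4 adult arrays, and 2 without embryonic replicate 3. Between embryonic and luminal cells 0 of the 41 changed by limma, where 4 genes changed in all (0.0234%). At an unadjusted limma p under 0.05 between embryonic and luminal cells stood 8 of the 41 (19.5%) and 2060 of all genes (12.05%). Between embryonic and basal cells it was 4 of the 41 (9.76%) and 1581 of all genes (9.25%). Both comparisons share the embryonic arrays.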

How the data were processed

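Per the labels' protocols, RNA of sorted cells was turned into amplified cDNA and read on Affymetrix arrays; adult samples carry the text of the embryonic preparation. The values the authors deposited are linear probe set intensities. RMA and affy are named in the submitters' processing notes; for versions, settings and joint or separate summarising of embryonic and adult arrays the answer is not given in the sources used here. Although log2 values had been foreseen, the deposited intensities were linear and were converted to log2, with no further normalization.

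The table lists 45141 probe sets; dropping 104 controls and 4 empty entries left 45033. The platform annotation gave 1 symbol for 28895, several for 551 and none for 15587. Entrez identifiers matched 28686, and 0 symbols were updated. Of 17096 genes, 7178 had several probe sets, as did 26 of the lipid genes; 4 of those 26 (Acacb, Fads2, Lpl, Thrsp) had probe sets of both signs.

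Limma 3.58.1 (R 4.3.3) fitted 3 group means over 7 arrays with eBayes (residual degrees of freedom 4, prior 2.29) and Benjamini-Hochberg adjustment over all genes. The 45 genes and the other lists were chosen with earlier results of these data known. All 45 could be named; of other lists, the 4 changed genes of lowest adjusted p in each direction, and the first 2 of a list that failed. The fit was tested on simulated data. Alternatives changed the probe set, filter, normalization, variance prior, array weights, fold minimum, arrays in the fit and replicate block, and left out each array. The number of arrays limits the precision. Figures used matplotlib 3.10.9 (Python 3.11.15).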

Additional observations from a re-analysis of the deposited data

How the results depend on the processing

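The small number of arrays limits all counts. Of 772 values of the 41 lipid genes under alternatives, 716 kept direction and call, 23 lost the call, 14 gained it and 19 turned sign, none of these for a gene called changed. Some of these settings, such as a lower fold minimum, kept the main differences and could not turn a sign. The count of lipid genes changed (4) was 2 with the lowest-mean probe set of each gene, 1 with array weights and 7 with a replicate block on the adult arrays alone, which added Elovl6, Cd36 and Fabp4. Replicate numbers are only shared numbers: luminal 2 minus 1 and basal 2 minus 1 correlated at 0.08 across genes, over 2 pairs. The count was 1 to 5 when each array was left out in turn. The count over all genes (939) was 605 with array weights, 2223 with no fold minimum, 1839 with a 1.5-fold minimum and 60 to 1178 with an array left out. Of the wider lipid genes (8), 4, 15 and 14 changed under the same 3 settings, and 0 to 10 with an array left out. Against basal cells, the embryonic count (1) was 0 with the lowest-mean probe sets, 0 with embryonic replicates 1 and 2 averaged, 2 with a replicate block over all arrays and 0 to 2 with an array left out. Signs turned with the lowest-mean probe set for Acacb (0.029), Fads2 (-0.20), Lpl (0.030) and Thrsp (-0.22), and with median centring for Fads1 (0.0074) and Plin2 (0.0076). With an array left out, differences ran from -0.11 to 0.070 for Acaca, -0.11 to 0.095 for Plin2, -0.42 to 0.41 for Fads1, -0.20 to 0.14 for Dgat1, -0.045 to 0.051 for Hmgcs1, -0.44 to 0.16 for Sqle, -0.089 to 0.61 for Thrsp and -0.45 to 0.13 for Pnpla2. The cause of these changes was not tested.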

Other observations

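Genes that carry sterols and lipoproteins gave the largest differences after Elovl4 and Lipg among the wider lipid genes. Apoe, the apolipoprotein that carries cholesterol between cells, read 5.88 and 6.35 on the luminal arrays and 8.32 and 8.54 on the basal arrays, a difference of -2.32 ± 0.27 (SE, adjusted p = 0.0109). Lrp1, a receptor that takes up lipoproteins carrying apolipoprotein E, read 7.53 and 8.01 against 10.02 and 10.23, a difference of -2.36 ± 0.25 (adjusted p = 0.00884). Both basal arrays of each gene lay far above both luminal arrays. Fibroblasts also express both genes, and the fibroblast marker sums were higher on the basal arrays; their part in these values was not tested. Of the 10 genes of sterol uptake, export and storage these 2 changed. Stard4 and Mylip did not pass, at -0.14 and -0.85. The differences of the 10 were 5 above 0 and 5 below. The highest, Abcg1 at 1.57, was chosen after its values were seen and did not pass (limma adjusted p = 0.0638).

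Among 15 genes of fatty acid oxidation and of the other pyruvate dehydrogenase kinases, 1 changed. Cpt2, the carnitine palmitoyltransferase of the inner mitochondrial membrane, read 6.61 and 6.61 on the luminal arrays and 4.95 and 5.30 on the basal arrays, a difference of 1.48 ± 0.28 (SE, adjusted p = 0.0255). Neither basal array was above background, so the fold is at least 1.82. Cpt1a and Cpt1b, the carnitine palmitoyltransferases of the outer membrane, did not pass, at 0.50 and -0.01. Pdk1, Pdk2 and Pdk3, chosen after their values were seen as relatives of Pdk4, had differences of 0.39, 0.29 and -0.13, and none passed.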
